A study of Mus musculus with 9 samples.

Results

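Adora2a, Ppp1r1b, Drd1, Rgs9, Pde10a, Penk, Tac1, Adcy5 and Gng7 are genes by which medium spiny neurons, the projection neurons of the striatum, are commonly recognised. They were followed here in RNA from dissected hypothalamus, where their levels bear on how much striatal tissue each library may hold. The 9 genes are the rows of the deposited count table that carry these names, out of 54532 genes in all, and all 9 were among the 17546 genes that passed a filter on low counts. The members were chosen by their levels in these libraries, above all the high levels in LP replicates 1 and 2, so those levels are given as a description.

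Each of 3 groups had 3 libraries, all from the hypothalamus of wild-type male mice of ICR, an outbred stock, on postnatal day 21. The mothers of the HA pups ate a diet high in fat and sucrose, HFHS, with 45% of its energy from fat, and the pups received 4-PBA once a day on postnatal days 4 to 16. The HP pups had HFHS mothers too and received PBS on the same days. In the LP group the maternal diet was low in fat, LFD, with 10% of its energy from fat, and PBS was given. Mothers entered the diets at 5 weeks of age, were mated 5 weeks later and ate them until lactation ended. No group combined LFD with 4-PBA, and the labels do not say which pups shared a litter. The p-values therefore rest on how these libraries vary, and part of that variation may be technical or shared within a litter.

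Medium spiny neurons fall into a direct pathway, with the dopamine receptor Drd1 and the peptide precursor Tac1, and an indirect pathway, with the dopamine receptor Drd2, the adenosine receptor Adora2a and the peptide precursor Penk. In these neurons Drd1 and Adora2a signal through the G protein Golf, which contains the gamma subunit Gng7, to the adenylyl cyclase Adcy5. The cAMP this enzyme makes activates protein kinase A, which turns the Ppp1r1b product, DARPP-32, into an inhibitor of protein phosphatase 1. Pde10a breaks cAMP and cGMP down, and Rgs9 shortens signalling by inhibitory G proteins. The striatum lies close to the anterior hypothalamus, and hypothalamic neurons themselves make Penk and Tac1, so the members are not equally specific to striatum in this dissection.

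Total counts lay between 18226924 and 21823961 per library, and levels are given as CPM, counts scaled to library size, after TMM, edgeR's trimmed mean of M-values, or, where genes are compared with each other, in the deposited FPKM, which divides by gene length. All 18 hypothalamic markers were detected in every library, from Avp at 665.1 to 1250.4 FPKM to Rax at 0.480 to 1.36 FPKM. Of the 9 libraries, HA replicate 3 and LP replicate 3 stood apart in 12 markers of meninges, whose summed level was 1356 and 723.4 CPM there against 93.8 to 196.9 CPM in the other 7. Titles also carry a code of unstated meaning. In HA and HP it is Hg43 on replicates 1 and 2 but Hg13 on replicate 3, and in LP it is Lg42 on replicate 1 and Lg63 on the other two. Because HA and HP share no code with LP, code and diet cannot be told apart.

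The receptors Adora2a and Drd1 were low in HA and HP and in 1 of the LP libraries, and high in LP replicates 1 and 2. Adora2a (ENSMUSG00000020178, chromosome 10, 75316877 to 75334784) encodes the adenosine receptor that opposes dopamine on indirect pathway neurons. It stood at 3.73, 3.96 and 4.21 CPM in HA, at 2.39, 2.96 and 2.77 CPM in HP, and at 15.7, 23.6 and 3.76 CPM in LP, in replicate order. LP replicates 1 and 2 thus lay above all 6 HA and HP libraries, while LP replicate 3 lay within their range and below HA replicates 2 and 3. Its counts were 43 to 81 in HA and HP, so that the exact 95% Poisson interval, which covers counting error only, ran from 1.73 to 3.22 CPM in HP replicate 1 and from 21.6 to 25.8 CPM in LP replicate 2.

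Drd1 (ENSMUSG00000021478, chromosome 13, 54051183 to 54055705), the stimulatory dopamine receptor of direct pathway neurons, stood at 5.76, 7.22 and 5.91 CPM in HA, at 4.62, 5.91 and 5.70 CPM in HP, and at 13.0, 17.96 and 4.35 CPM in LP. LP replicate 3 was here the lowest of the 9 libraries and LP replicate 2 the highest. In bulk RNA more cells of a type and more RNA per cell cannot be told apart, and this holds for every level given for these genes.

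Gng7 and Adcy5 carry the signal on from both receptors, and they differed in how far LP stood from the rest. Gng7 (ENSMUSG00000048240, chromosome 10, 80948624 to 81014945) stood at 48.9, 48.0 and 46.7 CPM in HA, at 54.2, 50.4 and 49.3 CPM in HP, and at 90.7, 132.1 and 47.2 CPM in LP. Its HA and HP levels filled a narrow band, and LP replicate 3 lay inside it. Adcy5 (ENSMUSG00000022840, chromosome 16, 35154877 to 35305738) stood at 257.4, 276.9 and 291.8 CPM in HA, at 270.9, 261.3 and 271.7 CPM in HP, and at 311.4, 331.9 and 288.7 CPM in LP. LP replicates 1 and 2 were again the highest, with HA replicate 3 the next below them.

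Of the genes that act on or end the cAMP signal, Ppp1r1b differed most between libraries. Ppp1r1b (ENSMUSG00000061718, chromosome 11, 98348404 to 98357796) stood at 11.2, 10.3 and 16.1 CPM in HA, at 8.35, 10.8 and 11.5 CPM in HP, and at 52.4, 82.0 and 13.4 CPM in LP. Pde10a (ENSMUSG00000023868, chromosome 17, 8525372 to 8986648) stood at 61.2, 53.7 and 63.7 CPM in HA, at 73.2, 61.8 and 75.9 CPM in HP, and at 94.9, 116.4 and 65.3 CPM in LP. Rgs9 (ENSMUSG00000020599, chromosome 11, 109225355 to 109298129) stood at 38.5, 42.6 and 37.7 CPM in HA, at 34.5, 40.3 and 36.2 CPM in HP, and at 45.2, 53.3 and 37.1 CPM in LP. In all 3 genes LP replicates 1 and 2 were the 2 highest libraries, and LP replicate 3 lay within the range of HA and HP.

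Of the peptide precursors, Penk (ENSMUSG00000045573, chromosome 4, 4133531 to 4138819), which yields the enkephalins, stood at 86.8, 80.1 and 80.2 CPM in HA, at 103.4, 78.0 and 89.9 CPM in HP, and at 115.3, 140.6 and 87.1 CPM in LP. Tac1 (ENSMUSG00000061762, chromosome 6, 7554879 to 7565834), which yields substance P and neurokinin A, stood at 96.0, 117.4 and 99.1 CPM in HA, at 92.9, 117.5 and 97.7 CPM in HP, and at 105.1, 129.2 and 111.9 CPM in LP. For Tac1, HA replicate 2 and HP replicate 2 were above LP replicates 1 and 3, and of the 9 genes it was the exception in which LP replicate 1 lay within the range of HA and HP.

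**Figure D1:**
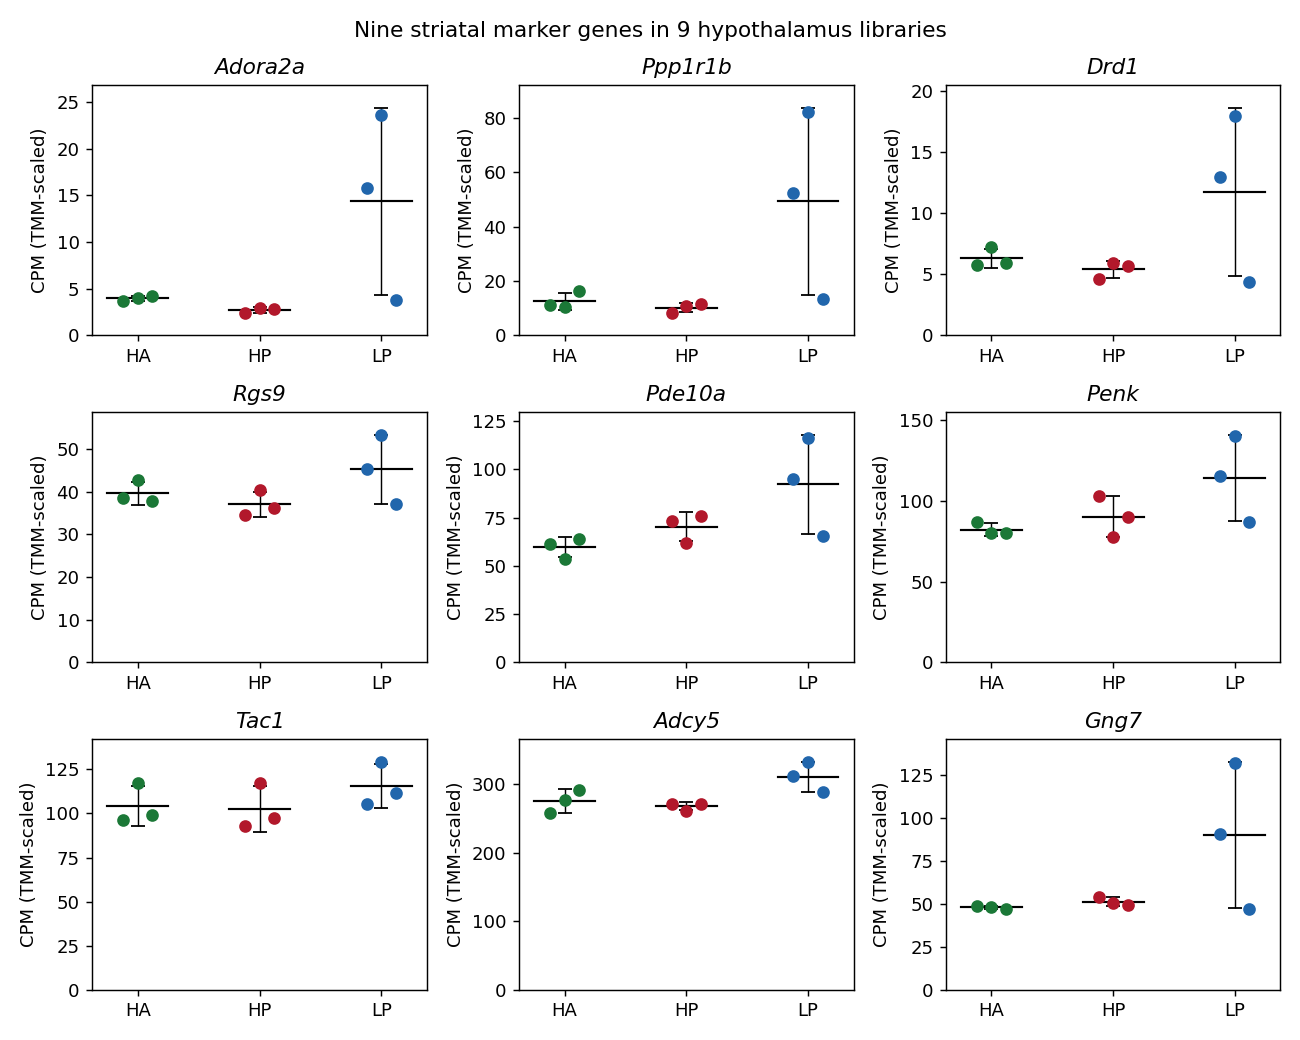
Level of each of the 9 genes in CPM (y axis, from 0) in the 3 libraries of HA, HP and LP (points), with the mean as a horizontal line and the SD as a bar (n = 3 per group). The widest LP bars come from LP replicates 1 and 2, for example 15.7 and 23.6 CPM for Adora2a, next to 3.76 CPM in LP replicate 3. For Tac1 the LP bar is no wider than that of HP (SD 12.4 against 13.1 CPM).

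Promoter windows of 6 of the 9 genes were found in the RefSeq table of GRCm38.p6, each reaching from 250 bases before to 50 bases after an annotated start. Adora2a, Ppp1r1b and Penk were the other members. The windows of the 2 direct pathway genes and of Gng7 are shown because Drd1 and Gng7 stood apart together in LP replicates 1 and 2 while Tac1 did so far less, with any match to TGACG or its reverse complement CGTCA, the core of the cAMP response element, in capitals.
Drd1, chr13:54055609-54055908, minus strand: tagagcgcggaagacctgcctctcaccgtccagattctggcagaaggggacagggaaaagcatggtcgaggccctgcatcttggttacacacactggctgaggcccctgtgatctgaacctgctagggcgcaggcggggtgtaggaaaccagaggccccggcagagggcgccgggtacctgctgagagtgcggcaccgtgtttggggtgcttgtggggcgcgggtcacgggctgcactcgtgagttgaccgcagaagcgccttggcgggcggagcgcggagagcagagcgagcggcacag
Gng7, chr10:81014876-81015175, minus strand: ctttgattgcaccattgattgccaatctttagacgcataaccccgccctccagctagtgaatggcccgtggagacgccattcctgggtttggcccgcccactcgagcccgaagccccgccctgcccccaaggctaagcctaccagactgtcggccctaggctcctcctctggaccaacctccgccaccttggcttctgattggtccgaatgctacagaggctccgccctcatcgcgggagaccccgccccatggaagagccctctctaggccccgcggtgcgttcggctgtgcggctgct
Tac1, chr6:7554811-7555110, plus strand: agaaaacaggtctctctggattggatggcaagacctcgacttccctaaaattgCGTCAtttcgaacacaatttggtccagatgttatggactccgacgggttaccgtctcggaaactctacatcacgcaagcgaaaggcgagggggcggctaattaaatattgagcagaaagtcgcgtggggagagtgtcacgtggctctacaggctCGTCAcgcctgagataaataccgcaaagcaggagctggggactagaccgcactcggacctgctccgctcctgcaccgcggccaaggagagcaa
The Tac1 window held 2 matches, and these windows of Drd1 and Gng7 held 0. Of the 9 windows of the 6 members, 2 held a match, the other being that of a second Gng7 start, against 20.8% of 32851 windows of the same length. A match is a stretch of letters, not a site shown to be used.

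Levels per gene length in HA and HP set the 9 genes in an order in which the 4 highest were separate. Over the 6 HA and HP libraries Penk stood at 47.6 to 63.1 FPKM, Adcy5 at 35.7 to 40.4 FPKM, Tac1 at 27.2 to 34.5 FPKM and Gng7 at 12.3 to 14.3 FPKM, with no overlap between neighbours. Rgs9 at 5.38 to 6.66 FPKM overlapped with Pde10a at 4.18 to 5.88 FPKM, which overlapped with Ppp1r1b at 2.84 to 5.48 FPKM. Drd1 at 1.27 to 1.99 FPKM overlapped with Adora2a at 0.779 to 1.37 FPKM. The order was not the same in LP replicate 2, where Gng7 at 34.7 FPKM and Ppp1r1b at 27.9 FPKM stood next to Tac1 at 37.8 FPKM, and Adora2a at 7.68 FPKM stood above Drd1 at 4.92 FPKM.

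The distance of each LP library from the median of the 6 HA and HP libraries ranged widely over the members. That median was 3.34 CPM for Adora2a, and LP replicates 1, 2 and 3 stood at 4.71, 7.07 and 1.13 times it. For Ppp1r1b the median was 11.0 CPM and the LP libraries stood at 4.76, 7.45 and 1.22 times it. The same multiples were 2.22, 3.08 and 0.747 for Drd1 and 1.85, 2.69 and 0.962 for Gng7. LP replicate 2 stood at 1.85 times the median for Pde10a, 1.68 for Penk, 1.40 for Rgs9, 1.31 for Tac1 and 1.22 for Adcy5. The members lowest per gene length in HA and HP, Adora2a, Drd1 and Ppp1r1b, were thus those in which LP replicates 1 and 2 stood farthest off.

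In absolute terms the excess over that median was spread otherwise. In LP replicate 2 it was 83.0 CPM for Gng7, 71.0 CPM for Ppp1r1b, 60.6 CPM for Adcy5, 57.1 CPM for Penk and 53.6 CPM for Pde10a, against 20.3 CPM for Adora2a and 12.1 CPM for Drd1. As a share of the level in LP replicate 2, the excess was 86.6% for Ppp1r1b and 85.9% for Adora2a but 18.3% for Adcy5. The excess in LP replicate 2 was 1.51 to 2.14 times that in LP replicate 1 for 8 members (median of all 9, 1.72), and 4.61 times for Tac1, whose excess in LP replicate 1 was 6.68 CPM. LP replicates 2 and 3 carry the same title code, Lg63, and still differed by 23.6 against 3.76 CPM in Adora2a.

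**Figure D2:**
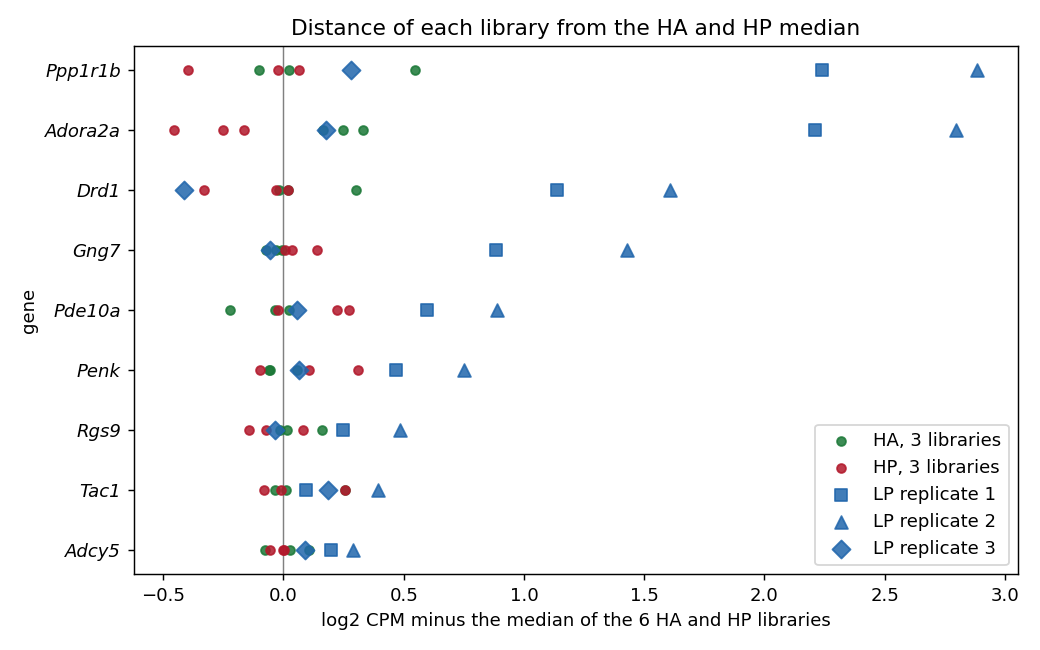
Difference of log2 CPM (x axis) between each library and the median of the 6 HA and HP libraries, for each gene (y axis, ordered by LP replicate 2), with HA and HP libraries as circles and LP replicates 1, 2 and 3 as squares, triangles and diamonds. LP replicate 2 is the rightmost point for all 9 genes, at 2.89 for Ppp1r1b and 0.29 for Adcy5, and the LP replicate 3 diamonds lie among the circles except for Drd1 at -0.41.

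Over the 9 genes the mean deviation of log2 CPM from its mean over the libraries was -0.248, -0.193 and -0.159 in HA, -0.339, -0.254 and -0.249 in HP, and 0.639, 1.02 and -0.220 in LP. HA and HP lay close together with LP replicate 3 among them. LP replicate 1 was above all 6 HA and HP libraries in 8 of 9 genes and LP replicate 2 in 9 of 9. LP replicate 3 was above them in 0 of 9 genes, and was within their range in 8 and below it in Drd1. Over all genes tested the shares above all 6 were 15.8% for LP replicate 1, 14.6% for LP replicate 2, 14.6% for LP replicate 3, and 4.89% for LP replicates 1 and 2 together.

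HP against LP, the comparison of maternal diets in vehicle pups, and HA against LP were in view when the genes were chosen, and they share the LP libraries. For Adora2a the mean was 3.96 ± 0.239 CPM in HA, 2.71 ± 0.286 CPM in HP and 14.4 ± 10.0 CPM in LP (SD, n = 3 each), with an LP spread far beyond that of the other groups. Ppp1r1b averaged 12.5 ± 3.16 CPM in HA, 10.2 ± 1.66 CPM in HP and 49.2 ± 34.4 CPM in LP, and Gng7 averaged 47.9 ± 1.099, 51.3 ± 2.57 and 90.0 ± 42.4 CPM in HA, HP and LP. All 9 estimates were below 0 in both comparisons, where 50.9% and 48.1% of all genes had an estimate below 0. The median log2 fold change was -0.39 in HP against LP and -0.63 in HA against LP, from -0.17 for Tac1 to -2.41 for Adora2a in HP against LP and from -0.15 for Tac1 to -1.98 for Ppp1r1b in HA against LP. Medians over all genes were -0.0024 and 0.0057.

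By edgeR's quasi-likelihood test with Benjamini-Hochberg adjustment over all genes, 0 of the 9 were called in HP against LP, where 0.0114% of all genes were called (0.0057% lower), and 8 had an unadjusted p under 0.05 and a lower estimate, against 3% of all genes. With either direction counted the share of all genes was 6.12%, and 0 members were among the 3.12% with a higher estimate. DESeq2 called 1, Adora2a, and limma-voom 0. In HA against LP 0 were called by edgeR, DESeq2 or limma-voom, where 0% of all genes were called by edgeR, and 7 had an unadjusted p under 0.05 and a lower estimate, against 3.45% of all genes (6.51% in either direction, 3.06% higher). Libraries did not overlap, with HP lower, for Adora2a, Ppp1r1b and Adcy5 (5.83% of all genes), and with HA lower for Pde10a and Penk (5.51%). No member was above LP without overlap, against 5.93% of all genes for HP and 5.4% for HA. Since these contrasts were in view in choosing the genes, nothing is read from these counts.

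These values depended on which LP libraries were used. Without LP replicates 1 and 2 the median over the 9 genes was -0.0069 in HP against LP and -0.074 in HA against LP, in fits where LP has 1 library that is assumed to vary like the others. Without LP replicate 2 alone the median in HP against LP was -0.19, and without LP replicate 1 alone it was -0.37, against -0.39 with all libraries. Without LP replicate 3 edgeR called Adora2a, Ppp1r1b, Drd1 and Gng7 in HP against LP, where 21 genes were called in all. In HA against LP it called Adora2a, Ppp1r1b, Pde10a and Gng7, where at most 14 genes were called in all. The LP libraries left are those whose high levels guided the choice of members, so nothing is read from these counts.

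HA against HP asked whether the genes differed with 4-PBA where the mothers ate HFHS, and LP enters it through the filter, the scaling and the shared estimate of spread. Of the 9 estimates 6 were above 0 and 3 below, where 49.1% of all genes were below, with a median log2 fold change of 0.039 against 0.0027 over all genes. EdgeR called 0 of the 9 (0.0114% of all genes were called), and 0 had an unadjusted p under 0.05, against 5.42% of all genes, 3% higher and 2.42% lower. DESeq2 and limma-voom also called 0. The libraries of HA were all above those of HP for Adora2a (5.92% of all genes) and all below them for Gng7 (5.89%).

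For Adora2a, at the means given above, HA over HP was estimated at 0.55 on the log2 scale (SE 0.52, 95% interval -0.60 to 1.69, edgeR adjusted p = 0.867). The spread behind that interval was estimated from all 9 libraries, LP replicates 1 and 2 included. In the fit to the 6 HA and HP libraries the estimate was 0.55 with an adjusted p of 0.794. Pde10a averaged 59.6 ± 5.19 CPM in HA and 70.3 ± 7.47 CPM in HP, with an estimate of -0.24 (95% interval -0.63 to 0.15, edgeR adjusted p = 0.844). For Adcy5 the interval was narrow, from -0.093 to 0.17, around an estimate of 0.04. The other members, Ppp1r1b, Drd1, Rgs9, Penk, Tac1 and Gng7, had estimates between -0.13 and 0.29 with edgeR adjusted p between 0.893 and 0.983. HA replicate 3, which stood apart in meningeal markers, was the highest HA library for Adora2a, Ppp1r1b, Adcy5 and Pde10a. Without it the median over the 9 genes was 0.057 and 0 were called.

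**Figure D3:**
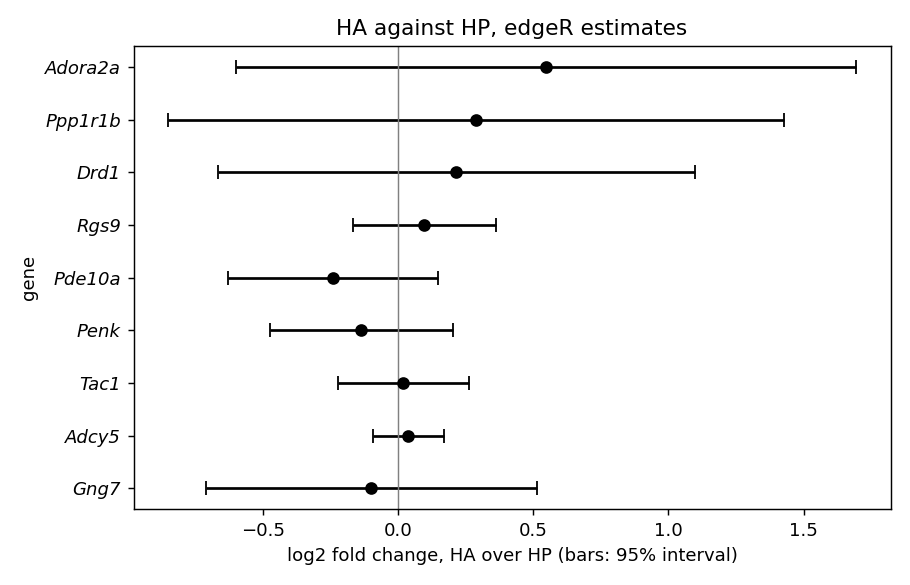
Log2 fold change of each gene (y axis) in HA over HP (x axis), as estimated by edgeR in the fit to 9 libraries, with bars for the 95% interval. All 9 intervals hold 0, and that of Adcy5 is the narrowest, from -0.093 to 0.17.

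Ratios of an indirect to a direct pathway gene were also taken within libraries, per gene length. They are ratios of whole levels, and hypothalamic neurons make Penk and Tac1 too. The balance between the striatal pathways was therefore not measured. The ratio of Adora2a to Drd1 in FPKM was 0.768, 0.649 and 0.843 in HA, 0.614, 0.592 and 0.576 in HP, and 1.44, 1.56 and 1.02 in LP. All 3 LP libraries, replicate 3 included, thus stood above all HA and HP libraries in this ratio. In LP replicate 3 that came with the lowest Drd1 of all libraries and an Adora2a level inside the HA and HP range. The ratio rested there on 70 Adora2a and 81 Drd1 counts, and in HA replicate 3 on 79 and 111. The 95% Poisson intervals of these libraries overlapped in both genes. The members were chosen by their LP levels, so the ratios are a description and were not tested. The ratio of Penk to Tac1 was 1.88, 1.42 and 1.68 in HA, 2.32, 1.38 and 1.91 in HP, and 2.28, 2.26 and 1.62 in LP, and its groups overlapped.

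Other genes of medium spiny neurons were taken from 3 lists, 33 genes of which 32 were found in the table and tested. These lists, like those that follow, were chosen with earlier results of these data known, so their counts are a description. LP replicates 1 and 2 both lay above all 6 HA and HP libraries in 17 of the 32, made up of 13 of 20 genes shared by both pathways, 2 of 7 of the direct and 2 of 5 of the indirect pathway, against 4.89% of all genes. Chrm4, the muscarinic receptor of direct pathway neurons, stood at 1.93, 3.74 and 1.86 CPM in HA, at 3.17, 1.61 and 2.35 CPM in HP, and at 7.11, 8.62 and 2.85 CPM in LP. LP replicate 2 was first and LP replicate 1 next, the order found in 8 of the 9 genes and in 2.19% of all genes tested.

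Drd2, the inhibitory dopamine receptor of the indirect pathway, stood at 16.9, 14.5 and 14.4 CPM in HA, at 14.7, 13.4 and 18.5 CPM in HP, and at 20.8, 24.8 and 19.4 CPM in LP, so that all 3 LP libraries were above the others. Bcl11b, a transcription factor of these neurons, stood at 13.0 to 15.8 CPM in HA and 13.0 to 16.8 CPM in HP, against 25.8, 29.6 and 15.4 CPM in LP. The transcription factors Meis2 and Sp9 were different, because HP replicate 1 was high in both. Meis2 stood at 9.07, 5.67 and 6.44 CPM in HA, at 15.9, 4.61 and 12.2 CPM in HP, and at 21.97, 23.9 and 6.29 CPM in LP. Sp9 overlaps Cir1 on the other strand, whose counts averaged 289.7 against 71.1 for Sp9, and since nothing says that counting used strand its level is uncertain.

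Scn4b, a sodium channel subunit, reached at most 18.6 CPM in HA and 19.98 CPM in HP, against 26.4, 35.2 and 18.7 CPM in LP. Syndig1l reached at most 12.7 CPM in HA and 14.5 CPM in HP, against 19.3, 19.5 and 12.7 CPM in LP. Rarb, a retinoic acid receptor, overlaps Top2b on the other strand, whose counts averaged 2551 against 85.6, so its level is uncertain too. Not every gene of the neurons stood high in both LP replicates 1 and 2, or highest there. Pdyn, the dynorphin precursor of direct pathway neurons, which hypothalamic neurons also make, stood at 57.9, 59.0 and 56.6 CPM in HA, at 50.4, 57.3 and 57.8 CPM in HP, and at 74.4, 57.8 and 59.1 CPM in LP. Slc35d3 stood at 4.47 to 5.40 CPM in HA, 3.92 to 5.13 CPM in HP and 5.84 to 7.15 CPM in LP. All 3 LP libraries were thus above the others, with LP replicate 3 the highest. Nt5e, the enzyme that makes adenosine outside cells, stood at 7.78, 4.28 and 11.1 CPM in HA, at 5.96, 4.82 and 8.001 CPM in HP, and at 7.70, 6.77 and 10.97 CPM in LP, and its groups overlapped. Eya1 was high in HA replicate 3 at 14.2 CPM and LP replicate 3 at 13.0 CPM, the libraries high in meningeal markers, against 3.11 to 4.86 CPM in the other 7.

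**Figure D4:**
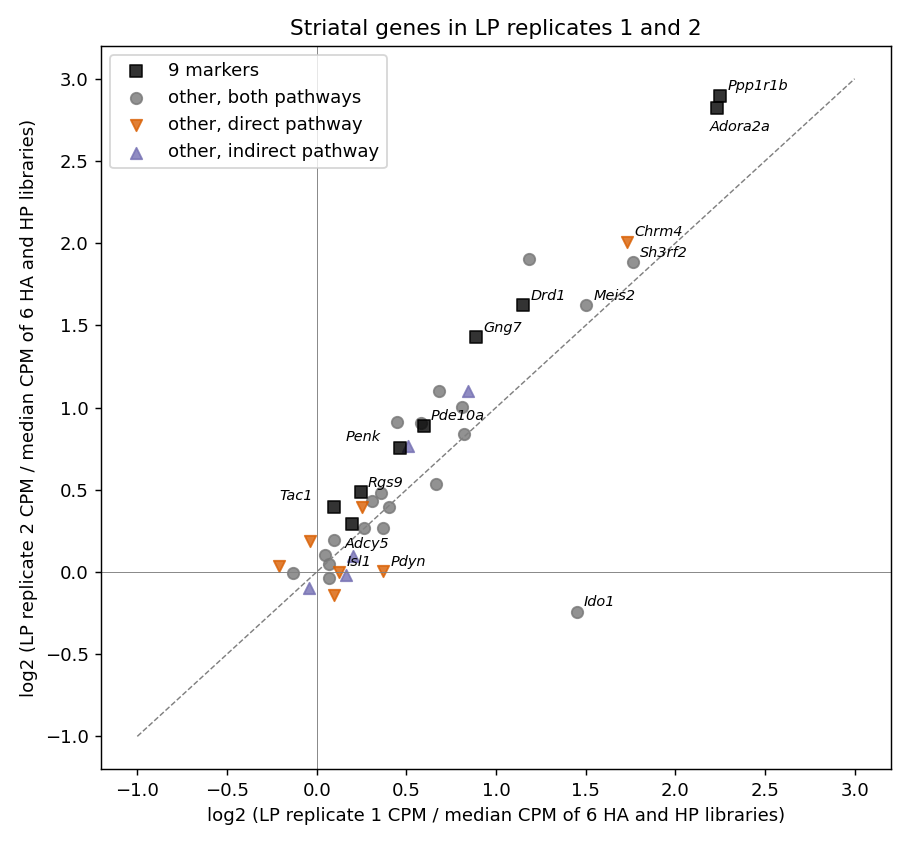
Log2 ratio of the level in LP replicate 1 (x axis) and LP replicate 2 (y axis) to the median of the 6 HA and HP libraries, for the 9 markers (squares) and 32 other striatal genes (circles, both pathways; triangles down, direct; triangles up, indirect). The dashed line marks equal ratios, and 9 of 9 markers lie above it, with Ppp1r1b and Adora2a at the upper right.

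EdgeR called 0 of these 32 genes in HA against HP, HP against LP or HA against LP (0.0114%, 0.0114% and 0% of all genes). In HP against LP an unadjusted p under 0.05 with a lower estimate was found for 12 of 20 shared genes (median log2 fold change -0.40), 2 of 7 direct (-0.21) and 1 of 5 indirect pathway genes (-0.42), against 3% of all genes. In HA against LP this held for 10 of 20 shared, 2 of 7 direct and 1 of 5 indirect pathway genes, against 3.45% of all genes. DESeq2 called 2 of the 32 in HP against LP, where it called 38 genes in all. These were Arpp21, a cAMP-regulated phosphoprotein, and Pde1b, a calcium-activated phosphodiesterase. In HA against LP DESeq2 called 1, Arpp21, and limma-voom called 0 in any comparison. In HA against HP an unadjusted p under 0.05 was found for 2 of the 32, 1 in each direction. Of all genes 5.42% had one, 3% higher and 2.42% lower. The medians of the 3 lists in HA against HP were 0.01, 0.067 and -0.025.

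The wider dopamine and cAMP pathway was described by 34 genes, and LP replicates 1 and 2 were both above all HA and HP libraries in 8 of them (4.89% of all genes). Of these 34, the G proteins, kinase and phosphatase subunits, anchors and targets around DARPP-32, edgeR, DESeq2 and limma-voom called 0 in all 3 comparisons. An unadjusted p under 0.05 was found for 0 in HA against HP (5.42% of all genes), for 3 in HP against LP, all with lower estimates (6.12%), and for 5 in HA against LP, 1 higher and 4 lower (6.51%). Akap5, an anchor of protein kinase A at synapses, had the widest range, and stood at 24.9, 22.8 and 20.2 CPM in HA, at 26.8, 23.2 and 23.1 CPM in HP, and at 38.9, 49.0 and 19.3 CPM in LP. Gnal, the alpha subunit of Golf, stood at 156.7, 155.7 and 132.7 CPM in HA, at 156.6, 149.7 and 166.7 CPM in HP, and at 188.0, 200.3 and 146.1 CPM in LP. Both were highest in LP replicate 2 and next in LP replicate 1. The catalytic subunit of protein kinase A, Prkaca, stood at 346.7 to 389.2 CPM in HA and 355.2 to 398.8 CPM in HP, against 361.9 to 392.6 CPM in LP, and its groups overlapped.

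Of 41 close relatives of the members 38 were tested, and LP replicates 1 and 2 were both above all HA and HP libraries in 2 (4.89% of all genes). EdgeR, DESeq2 and limma-voom called 0 in any comparison, while an unadjusted p under 0.05 was found for 3 in HA against HP (5.42% of all genes), 3 in HP against LP (6.12%) and 4 in HA against LP (6.51%). Among adenosine receptors, Adora1 was the highest, at means of 15.2 FPKM in HA, 15.3 FPKM in HP and 14.8 FPKM in LP, and Adora2a at 1.29, 0.881 and 4.68 FPKM. Adora2a was thus below Adora2b in HA (3.62 FPKM) and HP (3.26 FPKM), and above it in the LP mean (3.37 FPKM) but not in LP replicate 3, at 1.23 against 3.72 FPKM. Among inhibitors of protein phosphatase 1, Ppp1r1a stood at means of 36.9, 26.9 and 37.6 FPKM and Ppp1r1b at 4.26, 3.48 and 16.8 FPKM in HA, HP and LP. Ppp1r1a was high in HA replicate 3 and LP replicate 3, at 72.1 and 70.8 CPM, against 34.2 to 40.6 CPM in the other 7 libraries, and these are the libraries high in meningeal markers.

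Adcy5 was the highest of 9 adenylyl cyclases in every group, at means of 38.2 FPKM in HA, 37.2 FPKM in HP and 43.1 FPKM in LP, followed by Adcy2 at 26.5, 26.9 and 26.2 FPKM. Among 10 gamma subunits Gng3 was the highest, at 127.9, 129.8 and 133.1 FPKM, with Gng7 at 12.6, 13.5 and 23.7 FPKM. Of the R7 family of RGS proteins, Rgs7 averaged 6.87, 7.43 and 7.35 FPKM and Rgs9 6.18, 5.77 and 7.05 FPKM. Pde10a, at 4.62, 5.45 and 7.15 FPKM, was below Pde1b at 20.8, 20.1 and 24.7 FPKM among 13 phosphodiesterases. Penk was the highest opioid precursor and Tac1 the highest tachykinin gene, with Tac2 at 16.4, 16.2 and 15.1 FPKM. Receptors for the 2 peptide families, 5 of 6 tested, had 0 called by edgeR, DESeq2 or limma-voom. An unadjusted p under 0.05 was found for 1 in HA against HP (5.42% of all genes), 1 in HP against LP (6.12%) and 0 in HA against LP (6.51%).

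Markers of other tissue around the hypothalamus were measured beside these genes, and edgeR and limma-voom called 0 of them in any comparison, while DESeq2 called the hypothalamic gene Pomc in HA against LP. As a list, interneuron and basal forebrain markers came nearest to the pattern. Their mean deviation was -0.108, -0.129 and -0.815 in HA, 0.969, -1.08 and 0.175 in HP, and 0.807, 1.09 and -0.912 in LP. LP replicates 1 and 2 were high here too, but HP replicate 1 was at their level. On the 9 genes its mean deviation was the lowest of all libraries, at -0.339. By gene, HP replicate 1 was the lowest HA or HP library for Adora2a, Ppp1r1b, Drd1, Rgs9 and Tac1. It was the highest of them for Penk, at 103.4 CPM, and Gng7, at 54.2 CPM. Chat, the enzyme that makes acetylcholine, stood at 4.05, 3.64 and 1.17 CPM in HA, at 10.5, 0.518 and 5.80 CPM in HP, and at 10.4, 13.4 and 0.968 CPM in LP. The transcription factor Lhx8 stood at 2.58, 2.57 and 0.586 CPM in HA, at 11.1, 0.570 and 3.50 CPM in HP, and at 7.74, 9.19 and 0.591 CPM in LP. Slc5a7, Slc18a3, Lhx6 and Gbx1 were likewise high in LP replicates 1 and 2 and HP replicate 1. The interneuron markers Sst, Nos1 and Pvalb were not. In LP replicates 1 and 2 they stood at 1.07 and 0.908 (Sst), 1.08 and 1.01 (Nos1), and 0.970 and 1.11 (Pvalb) times the HA and HP median. The part of interneurons and basal forebrain cells in the levels of the 9 genes was not tested.

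Cortical and hippocampal markers deviated by -0.294 to 0.181, thalamic markers by -0.187 to 0.136 and septal markers by -0.152 to 0.277 over the 9 libraries. Hypothalamic markers deviated by -0.088, 0.086 and 0.034 in HA, 0.036, 0.074 and 0.071 in HP, and 0.089, -0.175 and -0.126 in LP. LP replicate 2, the highest in the 9 genes, had the lowest mean deviation in hypothalamic markers. It lay below all 6 HA and HP libraries in 9 of 18 (14.7% of all genes), within their range in 8 and above it in 1, Gal (14.6%). Crh and Hcrt, of those within the range, stood at 2.08 and 1.44 times the HA and HP median in LP replicate 2. In LP replicate 1 they stood at 2.08 and 1.49 times it. LP replicate 1 had the highest mean deviation, close to HA replicate 2. By summed CPM the order differed, with 1150, 1458 and 1495 in HA, 1292, 1378 and 1454 in HP, and 1406, 1181 and 1200 in LP. Myelin genes of oligodendrocytes split LP replicates 1 and 2, at -0.296 and 0.277. Meningeal markers stood at -1.27 and -0.729 in LP replicates 1 and 2, against 2.87 in HA replicate 3 and 2.07 in LP replicate 3. Pituitary markers deviated by -0.984 to 0.973 and choroid plexus markers by -0.227 to 0.239, with LP replicates 1 and 2 at -0.202 and 0.253 and at -0.052 and -0.051.

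**Figure D5:**
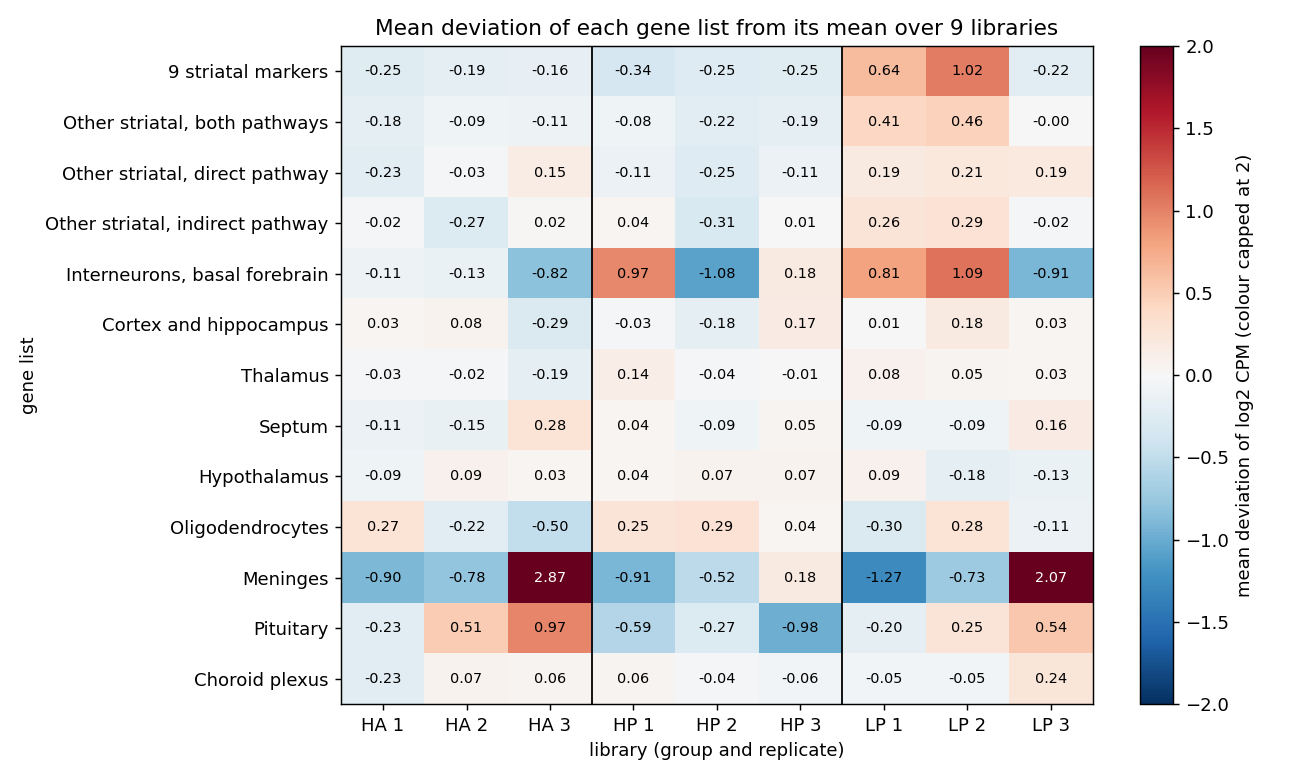
Mean deviation of log2 CPM of each gene list (rows) from its own mean over 9 libraries, by library (columns, HA, HP and LP with their replicate number), printed in each cell and coloured up to 2. The row of the 9 markers is high in LP replicates 1 and 2 (0.64 and 1.02), and that of interneurons and basal forebrain is also high in HP replicate 1 (0.97).

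Among all genes, likeness was measured as Pearson's r over the 9 libraries between log2 CPM and the mean deviation of the 9 genes, for 2144 genes with at least 1 CPM on average and a range of at least 1 in log2 CPM. Since LP replicates 1 and 2 stand apart, r mainly measures their distance from the rest, and it is given with its value over the remaining 7 libraries. For each member, r with the mean of the other members lay between 0.524 (Tac1) and 0.977 (Adora2a) over 9 libraries. Over the 7 it was -0.958 for Gng7, -0.872 for Penk and -0.733 for Pde10a, and 0.046 (Drd1) to 0.579 (Adora2a) for the rest. Outside LP replicates 1 and 2 the members thus did not all vary in the same direction. Gng7, Penk and Pde10a ran against the mean of the others, and whether some members moved together there was not tested. Of the 2144 genes, 13 (0.606%) had an r of at least 0.9. The highest was Kcnh3, a potassium channel (r 0.994, 0.651 over 7 libraries), which stood at 3.41, 3.48 and 4.10 CPM in HA, at 3.40, 3.42 and 3.19 CPM in HP, and at 9.64, 13.2 and 3.55 CPM in LP. Ddn, which encodes the postsynaptic protein dendrin (r 0.990, 0.346 over 7), stood at 37.9 to 46.0 CPM in HA, at 40.1 to 44.0 CPM in HP, and at 89.6, 122.1 and 42.3 CPM in LP.

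Ankrd63 (0.984), Crym (0.973), Gabrd (0.964), Itpka (0.956), Lmo7 (0.956), Adamts3 (0.944), Ano3 (0.943), Bcl11b (0.938) and Rin1 (0.933) were also among the 12 genes of highest r. Crym, which encodes the thyroid hormone binding protein mu-crystallin, stood at 4.47, 6.42 and 8.15 CPM in HA, at 4.68, 4.82 and 4.55 CPM in HP, and at 19.3, 31.1 and 6.88 CPM in LP. Gabrd, the delta subunit of extrasynaptic GABA receptors, stood at 0.471 to 0.891 CPM in HA and HP and at 3.75, 6.11 and 0.538 CPM in LP. Over the 7 libraries without LP replicates 1 and 2 the 12 values of r lay between -0.311 for Bcl11b and 0.904 for Adamts3.

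Genes of lowest r lay low in LP replicates 1 and 2. Relt, a receptor of the tumour necrosis factor family (r -0.985, -0.469 over 7 libraries), stood at 36.5, 36.7 and 32.5 CPM in HA, at 36.9, 37.2 and 36.1 CPM in HP, and at 19.4, 17.2 and 39.1 CPM in LP. Gstp1, a glutathione transferase (r -0.865, -0.504 over 7), stood at 122.5, 123.6 and 120.0 CPM in HA, at 143.0, 165.6 and 165.8 CPM in HP, and at 93.3, 78.4 and 116.4 CPM in LP. LP replicate 3 lay above all HA and HP libraries in Relt and below all of them in Gstp1. Mterf1a, Anxa8 and Plscr2, with r between -0.825 and -0.816, completed the 5 genes of lowest r.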

How the data were processed

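The authors deposited whole-number read counts per gene and FPKM values for 9 libraries. Per the submitters' processing notes, tools were DESeq2 1.16.1, featureCounts 1.5.0-p3 and HISAT2 2.0.5, with mm9 named as build. Start and end of 53499 of 54409 shared gene identifiers (98.3%), the 9 members included, equal those of GENCODE M21 on GRCm38, so coordinates are read as GRCm38. The deposited FPKM was 0.981 to 1.011 times the value recomputed from counts, gene length and library total. Per the labels' protocols the kit was NEBNext Ultra, from 3 µg of input, with no word on strand.

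Counts of all 9 libraries were fitted with edgeR 4.0.16 (R 4.3.3; filterByExpr, TMM, quasi-likelihood F test, group as the term), adjusted by Benjamini-Hochberg over 17546 genes, threshold 0.05. The common dispersion was 0.0199. DESeq2 1.42.0 and limma 3.58.1 (voom) were alternatives, and all were tested on simulated data. Log2 CPM has a prior count of 2. SE is the estimate's size over the square root of F. An exact permutation test of 3 against 3 cannot go below p = 0.1 and was not used. Members and lists were chosen with earlier results of these data known. The rule for named genes gave the 9 members, the up to 6 of widest range in each list, the highest relative of a family, and those of highest and lowest likeness, and the text describes some of these; Arpp21, Pde1b, Prkaca, Pomc and the lower relatives were named after their values were seen, and 1 gene of the rule is not reported here.

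Libraries of a group differed by more than sampling noise (chi-square per degree of freedom 4.73 to 25.8). Replicate numbers come from the titles, which do not say what they share. Same-numbered libraries correlated in their deviations from the group mean at 0.256, 0.144 and 0.486 between HA and LP. The values were 0.082, 0.0039 and 0.118 between HA and HP, and 0.137, -0.028 and 0.159 between HP and LP. Only HA and LP passed the limit of 0.1 set for every pair. Even there the best match of replicate 2 was replicate 1, and the value of 0.486 joins the libraries high in meningeal markers. A fit with the replicate number as a block was an alternative.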

Additional observations from a re-analysis of the deposited data

How the results depend on the processing

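No setting tried changed the side of the threshold of any member in HA against HP, where the estimate of Adora2a lay between 0.463 and 0.619 over 20 alternatives (adjusted p 0.745 to 0.99 where one was given). Estimates that changed sign there were those of Tac1, which ranged from -0.071 to 0.13 as libraries were left out (-0.071 for HA replicate 2, -0.052 for HP replicate 1 and -0.018 for HP replicate 3), and Adcy5, which ranged from -0.001 (HA replicate 3) to 0.081 and was -0.0011 with LP replicate 3 and HA replicate 3 both left out. With the replicate block 0 members were called in any comparison, their medians were 0.038 in HA against HP, -0.38 in HP against LP and -0.62 in HA against LP, and 4 rather than 2 genes were called in HP against LP. Without a filter on low counts, edgeR called 5, 53 and 41 genes in HA against HP, HP against LP and HA against LP, of which 0, 3 and 4 were members. DESeq2 called 10, 38 and 28 genes, of which 0, 1 and 0 were members. Library totals left 1 gene in HP against LP. Fits to the 6 libraries compared called 4 in HP against LP and 1 in HA against LP. Within title code Hg43, 27 genes were called in HA against HP and 0 members, with a member median of 0.018, and the code as a term gave 0.038. Code Hg13 has 1 library a group, and HA replicate 3 minus HP replicate 3 was 0.58 in log2 CPM for Adora2a.

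Leaving out 1 library at a time gave 1 to 9, 1 to 21 and 0 to 14 called genes in HA against HP, HP against LP and HA against LP, 0, 0 to 4 and 0 to 4 called members, and member medians of 0.036 to 0.13, -0.59 to -0.19 and -0.82 to -0.43. The highest counts of members came without LP replicate 3. Without LP replicates 1 and 2 the median in HA against LP was -0.074. Without LP replicate 3 and HA replicate 3, an alternative chosen after seeing the data, 10, 37 and 23 genes were called, 0, 4 and 5 of them members. The cause of these shifts was not tested. Adora2a and Drd1, at 43 to 135 counts in HA and HP, are the members most limited by depth.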
